A study of Mus musculus with 6 samples.

Results

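The genes described here are 10 actin regulators that the mouse neural tube needs, singly or together with a relative, to close normally. They were measured in the posterior part of embryos that lack Pax3 function and of wild-type embryos. They are Shroom3, Enah, Vasp, Marcks, Marcksl1, Vcl, Abl1, Abl2, Cfl1 and Arhgap35, and they were found by gene symbol in the annotation of one-colour CodeLink Mouse Whole Genome arrays. All 10 were on the array, with 17 of its 34967 probes for transcripts, and 15 of these probes were bright enough to be tested. The array names 18562 genes in all. Embryos were taken at embryonic day 9.5, when the average embryo had 21.3 somite pairs and only the posterior neuropore was still open, and the part below the forelimb was cut off for RNA. There were 3 Splotch null and 3 wild-type samples, all of the strain labelled LMBc, which the labels do not explain. Splotch embryos carry a mutation in Pax3, which encodes a transcription factor with a paired domain, active in the dorsal neural tube, dermomyotome and neural crest. Neither the allele nor the number of embryos behind a sample was stated, so p-values speak for the spread between these samples, which may be partly technical.

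Closing the neural tube is a mechanical task. Neuroepithelial cells narrow at their apical side when a belt of actin and myosin, tied to cell junctions, contracts, and the folds rise, bend and meet. Shroom3 sets up contraction of that belt, Ena/VASP proteins lengthen actin filaments, cofilin cuts them, vinculin ties them to junctions, MARCKS proteins link them to the membrane, and the Abl kinases and Arhgap35 pass signals from adhesion to actin. In mice, loss of one of these genes, or of a pair of relatives together, leaves the cranial folds open, and spinal closure is also affected for some of them.

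None of the 10 genes passed the test between Splotch null and wild-type samples. With limma, the share of the 14314 tested genes whose Benjamini-Hochberg adjusted p fell under 0.05 was 0%, and all 10 actin regulators had an adjusted p of 0.9998. Before adjustment, 204 genes (1.43%) had a p under 0.05, and 0 of the 10 did. Their differences, as log2 intensity in Splotch null minus wild type, lay between -0.18 for Vasp and 0.19 for Shroom3, with a median of -0.025 against 0.017 over all genes. The mean was higher in Splotch null for 4 of the 10, and for 55% of all genes. The 95% interval of the difference stayed within 1.5-fold in either direction for 8 of the 10, and for 66.5% of all genes. The intervals of Enah and Cfl1 reached further. A log2 difference is taken after adding 50 to the background-subtracted intensity and quantile normalization, which understates differences of dim genes.

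**Figure D1:**
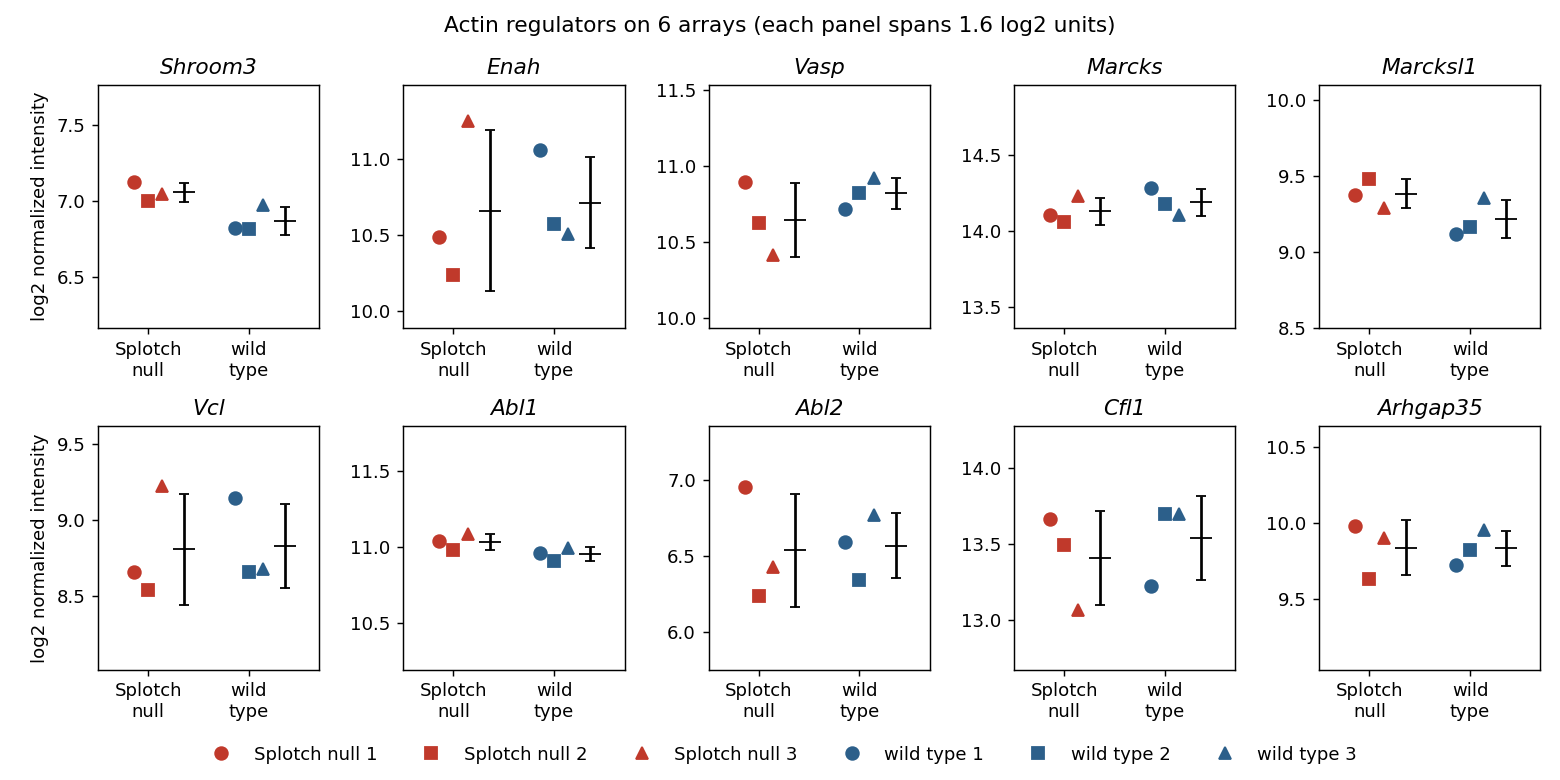
Level of each actin regulator on the 6 arrays, as log2 of normalized intensity, with Splotch null samples on the left of each panel and wild-type samples on the right. Symbols mark the replicate, and the black bar gives the mean and SD of 3 arrays. Shroom3 is the 1 gene whose genotypes do not overlap, and in Enah, Vcl and Cfl1 a sample of each genotype stands apart from the other 4.

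The 6 arrays differed in ways that cut across genotype. From 66.1% to 71.7% of transcript probes lay above background, and the median raw intensity was 86.4, 86.7 and 121.1 on the Splotch null arrays and 116.3, 99.7 and 84.3 on the wild-type arrays. Splotch null 3 and wild type 1 were therefore the 2 brightest arrays, 1 of each genotype. They also had the lowest mean log2 intensity over 5 muscle markers, 8.33 on each against 8.81 to 9.27 elsewhere. Of these 5 markers, 1 was above background on no array. Over 7 yolk sac and extraembryonic endoderm markers they were lowest too, at 7.27 and 8.02 against 8.14 to 11.56. Single markers did not all follow these means. Myl7 (7.97 and 7.57, against 9.64 to 10.09) and Ttr (7.13 and 8.145, against 9.16 to 13.51) were lowest on this pair. In contrast, Acta1 was highest in Splotch null 3 (7.70). Trf in Splotch null 3 (7.78) and Afp in wild type 1 (9.52) were second highest. Splotch null 2 stood apart in another way, with a mean log2 intensity of 11.56 over 7 yolk sac and extraembryonic endoderm markers, against 7.27 to 8.79 on the other 5 arrays. Of these 7 markers, 5 were above background on all 6 arrays, and none was below it throughout. On Splotch null 2 the 4 neural progenitor markers averaged 8.78, against 9.14 to 9.87 on the others. Sox2 (8.52 against 9.83 to 10.51) and Sox3 (9.69 against 9.91 to 11.43) were lowest there. Its Nes level, 9.75, was barely below the 9.77 of wild type 1, and its Sox1 level, 7.14, was above the 7.02 of wild type 1. The tissue was caudal by its markers, since Cdx2 and Hoxd11 were above background on all 6 arrays and the forebrain genes Otx2 and Emx1 on none. One label field called it anterior neural tube. Pax3 itself gave log2 intensities of 10.72, 10.52 and 10.63 in Splotch null and 10.02, 10.83 and 10.51 in wild type at its brighter probe, which does not check the unstated allele.

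Shroom3 is the apical constriction gene of the set, a scaffold at apical junctions. Its probe was dim but above background on all 6 arrays, with 3.003 as its lowest and 4.76 as its highest ratio to the array's trimmed mean over negative control spots. The raw intensity was 78.4, 69.0 and 100.7 in Splotch null and 73.5, 63.6 and 65.5 in wild type. After normalization the log2 intensity was 7.12, 7.002 and 7.05 in Splotch null and 6.82, 6.82 and 6.98 in wild type. All 3 Splotch null values were therefore above all 3 wild-type values, by a small gap, whereas the unscaled intensities overlapped. A lack of overlap was found for 1 of the 10 genes, and for 5.11% of the 13766 genes measured on every array. The means were 7.06 ± 0.062 in Splotch null and 6.87 ± 0.091 in wild type (SD, n = 3 each), a difference of 0.19 (SE 0.12, 95% interval -0.086 to 0.46). As a fold it was 1.14 (0.94 to 1.37), and limma did not call it (adjusted p = 0.9998). The exact two-sided permutation p was 0.1, the smallest that 3 against 3 allows.

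The size of the Shroom3 difference depended on the offset, with 0.28 when 10 was added before log2 and 0.085 when 200 was added. Relative to the median of its own array, Shroom3 stood at 0.907, 0.797 and 0.831 in Splotch null and at 0.632, 0.638 and 0.777 in wild type. The genotypes also stayed apart with median scaling and with cyclic loess. The authors' deposited value table gave the same, but it is nearly the same quantity as median scaling. With both of these offsets they had to stay apart, since quantile normalization goes by rank and an offset leaves ranks unchanged. Its relatives Shroom4 and Shroom2 overlapped between genotypes. Shroom4 differed by -0.10 (SE 0.11) and Shroom2 by 0.15 (SE 0.27), and Shroom1 was too dim to test.

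RefSeq lists 2 starts for Shroom3, and both promoters are shown because this is the gene whose genotypes did not overlap in embryos lacking a paired-box factor. Each window runs from 250 bases before the start to 50 after it in GRCm38.p6, 5′ to 3′ on the plus strand of chromosome 5. Capitals mark every match, on either strand, to the GC box GGGCGG, the CCAAT box, the TATA box TATAAA, the homeodomain motif TAATTA, the pentamer GTCAC or the CArG box.
Shroom3, chr5:92809132-92809431: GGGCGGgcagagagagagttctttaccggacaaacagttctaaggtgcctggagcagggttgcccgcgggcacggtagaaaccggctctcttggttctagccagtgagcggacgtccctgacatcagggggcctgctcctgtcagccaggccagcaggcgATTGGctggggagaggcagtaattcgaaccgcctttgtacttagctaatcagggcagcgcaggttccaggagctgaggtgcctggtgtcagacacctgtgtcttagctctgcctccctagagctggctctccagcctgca
Shroom3, chr5:92897743-92898042: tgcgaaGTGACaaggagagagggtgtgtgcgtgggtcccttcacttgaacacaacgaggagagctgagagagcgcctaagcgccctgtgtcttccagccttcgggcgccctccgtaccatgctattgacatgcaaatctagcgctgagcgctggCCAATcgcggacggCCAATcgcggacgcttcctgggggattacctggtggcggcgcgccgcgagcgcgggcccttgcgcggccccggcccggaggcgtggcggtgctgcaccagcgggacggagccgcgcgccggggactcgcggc
The upstream window holds 1 GGGCGG match and 1 CCAAT match, and the downstream window holds 2 CCAAT matches and 1 GTCAC match. GTCAC, found in paired-domain sites, was present in 45.6% of 32851 promoter windows of this length, so its presence is common. TAATTA was in neither window and in 5.29% of all windows. The match is of letters only, and nothing on these arrays measured binding.

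The Ena/VASP family came next in the order of filament growth. Enah, the mouse Mena protein, speeds filament growth at barbed ends, and mice that lack it together with relatives fail in cranial closure. Its brighter probe had a raw intensity of 1256, 1101 and 2689.6 in Splotch null and 2292.5, 1415 and 1273 in wild type. Splotch null 3 and wild type 1 were near each other and well above the other 4 samples. The log2 means were 10.66 ± 0.53 in Splotch null and 10.71 ± 0.30 in wild type (SD, n = 3 each), so the difference of -0.052 (SE 0.28, 95% interval -0.71 to 0.61) was far smaller than the spread within a genotype. The spread was wide for this array, since 89.5% of genes had a smaller SD within genotypes. The dimmer Enah probe, above background on 5 arrays, differed by 0.0091 (SE 0.13), and its highest sample was wild type 1. In raw intensity Splotch null 3 (68.2) and wild type 1 (83.7) were the highest at that probe too, against 38.8 to 56.9 elsewhere. After normalization Splotch null 3, at 6.72, was the second lowest there, so the normalized values of that probe do not show both samples high.

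Vasp, the other member of that family on the list, had 2 bright probes. At the brighter one the raw intensity was 1697, 1459.7 and 1549 in Splotch null and 1821, 1682 and 1746 in wild type. In raw intensity wild type 2 lay just below Splotch null 1, and the other wild-type samples lay above every Splotch null sample. After normalization Splotch null 1, at 10.89, exceeded wild type 1 and 2, at 10.72 and 10.82. The log2 intensity averaged 10.64 ± 0.24 in Splotch null and 10.82 ± 0.10 in wild type (SD, n = 3 each), a difference of -0.18 (SE 0.15, 95% interval -0.54 to 0.19). The other Vasp probe differed by -0.15 (SE 0.16), in the same direction. Evl, the third relative, differed by -0.033 (SE 0.12), and its 3 Splotch null values were close together at 9.26, 9.26 and 9.25, inside the wild-type range of 9.14 to 9.41.

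Marcks and Marcksl1 encode myristoylated substrates of protein kinase C that bind actin and the inner membrane, and loss of either gene in mice gives exencephaly. Marcks had nearly the same raw intensity on every array, with 18197, 18141 and 18505 in Splotch null and 18084, 18955 and 18141 in wild type. The highest was 1.05 times the lowest, and no spot was marked as saturated. Mean log2 intensity was 14.13 ± 0.088 in Splotch null and 14.19 ± 0.089 in wild type (SD, n = 3 each), with a difference of -0.058 (SE 0.12, 95% interval -0.34 to 0.22). The sign turned with median scaling (0.027) and with the authors' value table (0.029).

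Marcksl1 was read from 1 probe, since the other was not above background on any array. Its raw intensity was 551, 619 and 701 in Splotch null and 595, 510.4 and 526 in wild type. After normalization the values were 9.38, 9.48 and 9.29 in Splotch null and 9.12, 9.17 and 9.36 in wild type, with wild type 3 inside the Splotch null range. The means were 9.38 ± 0.095 in Splotch null and 9.21 ± 0.12 in wild type (SD, n = 3 each), a difference of 0.17 (SE 0.13, 95% interval -0.13 to 0.46) or 1.12-fold. It did not pass, and its exact two-sided permutation p was 0.2. Of 8 tested genes for protein kinase C and calmodulin, which act on MARCKS proteins, 4 had a higher and 4 a lower mean in Splotch null and 0 passed. Prkce differed by -0.31 (SE 0.20), Prkcz by 0.20 (SE 0.22) and Prkcb by 0.17 (SE 0.18).

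Vinculin, encoded by Vcl, reinforces the hold of cadherin and integrin complexes on actin, and mouse embryos without it fail in cranial closure. The raw intensity of Vcl was 311, 288 and 668 in Splotch null and 605, 351 and 304 in wild type. As for Enah, Splotch null 3 and wild type 1 were the high samples and the other 4 lay together. On the log2 scale the means were 8.80 ± 0.36 in Splotch null and 8.82 ± 0.28 in wild type (SD, n = 3 each), a difference of -0.019 (SE 0.22, 95% interval -0.54 to 0.50). Levels of Enah and Vcl ran together over the 6 arrays, with a Pearson r of 0.985 and a Spearman correlation of 0.83. This describes 6 points, and both genes also ran with the log2 array median (r of 0.94 for Enah and 0.92 for Vcl).

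Because their levels ran together, the promoters of Vcl and Enah are set side by side, with the same window, build and capitals as for Shroom3.
Vcl, chr14:20929148-20929447, plus strand: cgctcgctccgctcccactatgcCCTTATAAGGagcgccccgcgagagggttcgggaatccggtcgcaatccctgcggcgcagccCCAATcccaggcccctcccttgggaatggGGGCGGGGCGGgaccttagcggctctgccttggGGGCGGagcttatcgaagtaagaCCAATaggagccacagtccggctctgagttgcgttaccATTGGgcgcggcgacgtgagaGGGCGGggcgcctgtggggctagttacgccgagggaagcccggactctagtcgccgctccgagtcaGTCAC
Enah, chr1:182019931-182020230, minus strand: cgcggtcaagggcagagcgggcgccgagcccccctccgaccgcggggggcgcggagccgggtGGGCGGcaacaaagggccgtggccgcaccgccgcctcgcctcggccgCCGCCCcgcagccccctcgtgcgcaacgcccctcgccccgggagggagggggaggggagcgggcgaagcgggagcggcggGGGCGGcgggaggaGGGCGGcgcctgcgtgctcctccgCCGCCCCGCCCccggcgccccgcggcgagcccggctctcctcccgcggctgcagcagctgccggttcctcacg
The windows have little in common beyond GGGCGG. Enah holds 6 matches to GGGCGG, some overlapping, and no other motif, in a window of 83.3% G and C, against a median of 52.7% over all windows. Vcl holds 4 matches to GGGCGG, 3 to CCAAT, 1 to GTCAC in its last bases, and 1 CArG box, the site of serum response factor, starting at base 24 of the window. A CArG box was present in 1.63% of all windows. Among the 11 windows found for 9 of the actin regulators, Vcl alone held one, 9 held GGGCGG against 35.7% of all windows, and 0 held TATAAA against 13.6%. These 11 windows had a median of 67% G and C.

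The Abl kinases act on actin through adaptors, and mouse embryos without both of them do not close the neural tube. Abl1 was among the steadiest genes on the arrays, with only 0.988% of genes having a smaller SD within genotypes. Its raw intensity was 1877, 1901 and 2426 in Splotch null and 2136, 1776 and 1839.6 in wild type, and the normalized values lay within 0.18 log2 units of each other. The log2 means were 11.03 ± 0.053 in Splotch null and 10.95 ± 0.044 in wild type (SD, n = 3 each), a difference of 0.081 (SE 0.11, 95% interval -0.18 to 0.34). The genotypes overlapped, except with cyclic loess, where the 3 Splotch null values lay above the 3 wild-type values. Both dimmer Abl1 probes were also above background on every array, with differences of -0.018 (SE 0.13) and 0.0012 (SE 0.11).

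Abl2 was close to background. Its raw intensity was 65.4, 22.3 and 45.8 in Splotch null and 54.4, 30.7 and 51.5 in wild type, and Splotch null 2 and wild type 2 were not above background. The highest and the lowest sample were both Splotch null. Its log2 intensity averaged 6.54 ± 0.37 in Splotch null and 6.57 ± 0.21 in wild type (SD, n = 3 each), a difference of -0.030 (SE 0.21, 95% interval -0.53 to 0.47). Abl adaptors and substrates had 9 of 12 tested genes with a higher mean in Splotch null and a median difference of 0.092. None of them passed, and the adaptor Nck1 differed by 0.24 (SE 0.16), the docking protein Dok1 by 0.23 (SE 0.18) and the adaptor Sorbs2 by 0.15 (SE 0.15).

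Cfl1 encodes non-muscle cofilin, which severs old filaments, and mouse embryos without it have open neural folds. The raw intensity was 13122, 11912 and 8829.9 in Splotch null and 9276, 13399 and 13043 in wild type. Here Splotch null 3 and wild type 1 were the low samples, the reverse of Enah and Vcl. Mean log2 intensity was 13.41 ± 0.31 in Splotch null and 13.54 ± 0.28 in wild type (SD, n = 3 each), a difference of -0.13 (SE 0.21, 95% interval -0.62 to 0.35). Without Splotch null 3 the sign turned, to 0.040. Cofilin 2, the muscle form encoded by Cfl2, differed by -0.068 (SE 0.12).

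Of the other genes of the cofilin cycle 8 of 10 tested had a higher mean in Splotch null, with a median difference of 0.16 and 0 past the test. Dstn, which encodes the cofilin relative destrin, had log2 intensities of 11.89, 11.80 and 12.45 in Splotch null and 11.64, 11.835 and 11.56 in wild type. The difference was 0.37 (SE 0.19), Splotch null 3 was the highest sample, and Splotch null 2 lay below wild type 2. Wdr1, whose product Aip1 helps cofilin, differed by 0.27 (SE 0.14) with no overlap between genotypes, and the kinase Pak1 by 0.23 (SE 0.14).

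Arhgap35 encodes a GTPase-activating protein, p190-A, that acts downstream of adhesion, and mice without it have neural tube defects. Its brightest probe had a raw intensity of 859, 696 and 1076.5 in Splotch null and 922, 827 and 847 in wild type. The lowest sample was Splotch null 2, and the genotypes overlapped fully. The log2 means were 9.84 ± 0.18 in Splotch null and 9.83 ± 0.11 in wild type (SD, n = 3 each), a difference of 0.0041 (SE 0.14, 95% interval -0.33 to 0.33). A dimmer probe differed by -0.028 (SE 0.16), and the third was below background everywhere. Arhgap5, which encodes the relative p190-B, differed by 0.40 (SE 0.26) and did not pass.

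**Figure D2:**
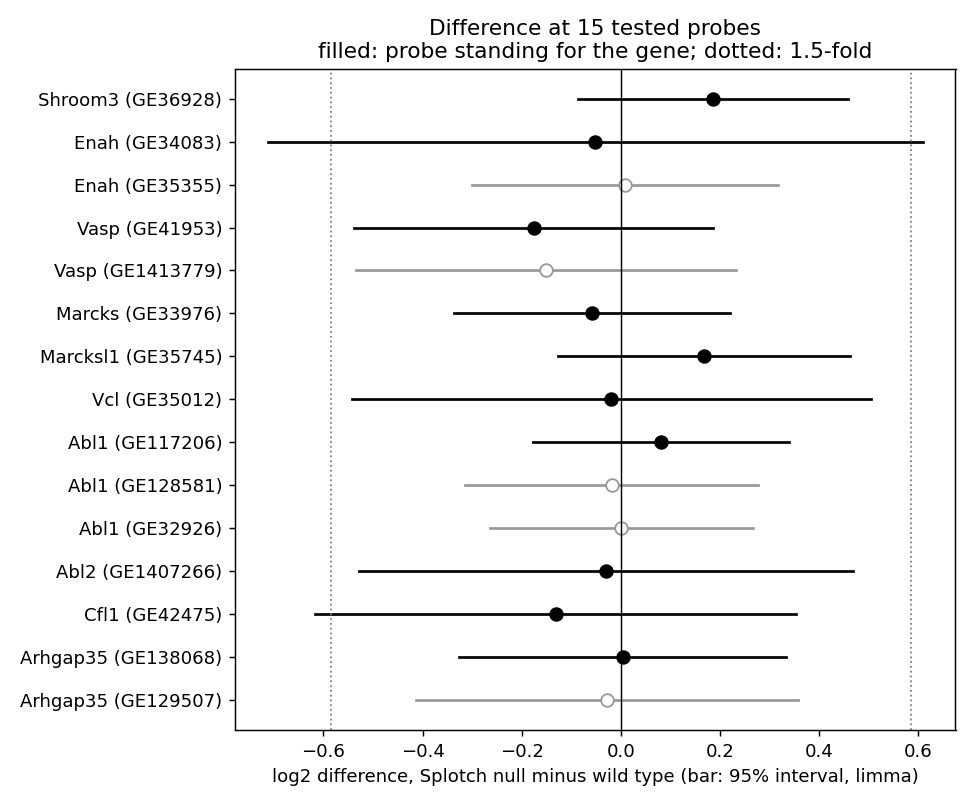
Difference in log2 intensity, Splotch null minus wild type, at the 15 tested probes of the 10 genes, with 95% intervals from limma. Filled points are the probes that stand for a gene, and dotted lines mark 1.5-fold. All intervals include 0, and those of the brighter Enah probe and of Cfl1 extend past a dotted line.

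The widest variation among the 10 genes was between arrays of one genotype. Splotch null 3 and wild type 1, the 2 brightest arrays, were both above the other 4 for Enah, Vcl and Marcks and both below them for Cfl1. Over all genes measured on 6 arrays, 22.5% had both above the other 4 and 25.3% had both below, so 4 of 10 is no more than for genes at large. The mean of those 2 arrays exceeded the mean of the other 4 by 0.70 log2 units for Enah, by 0.55 for Vcl and by 0.14 for Marcks, and it was -0.50 for Cfl1. For Enah, Vcl and Cfl1 the same order held in raw intensity and in intensity over the array median. For Marcks it did not, since relative to the array median the 2 brightest arrays were lowest, at 152.8 in Splotch null 3 and 155.6 in wild type 1 against 190.1 to 215.3 elsewhere. These 2 arrays were also the lowest in the means over muscle and yolk sac markers, though not in every marker. Brightness and tissue content therefore cannot be told apart on this pair. The part of either in these levels was not tested.

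Within each brightness class the genotypes could be set against each other. Between the 2 brightest arrays the difference of Splotch null minus wild type was 0.22 for Shroom3, 0.20 for Enah, 0.075 for Vcl and -0.15 for Cfl1. Among the other 4 arrays it was 0.17 for Shroom3, -0.18 for Enah, -0.067 for Vcl and -0.12 for Cfl1. Shroom3, Marcksl1 and Abl1 were higher and Vasp, Marcks and Cfl1 lower in Splotch null in both classes. The other 4 genes differed in sign between the classes. For Shroom3 the sign was fixed beforehand, since its genotypes did not overlap on any array. The classes are parts of the same arrays that gave the main difference, so a shared sign is not a separate test. How many of all genes kept their sign in both classes was not counted.

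**Figure D3:**
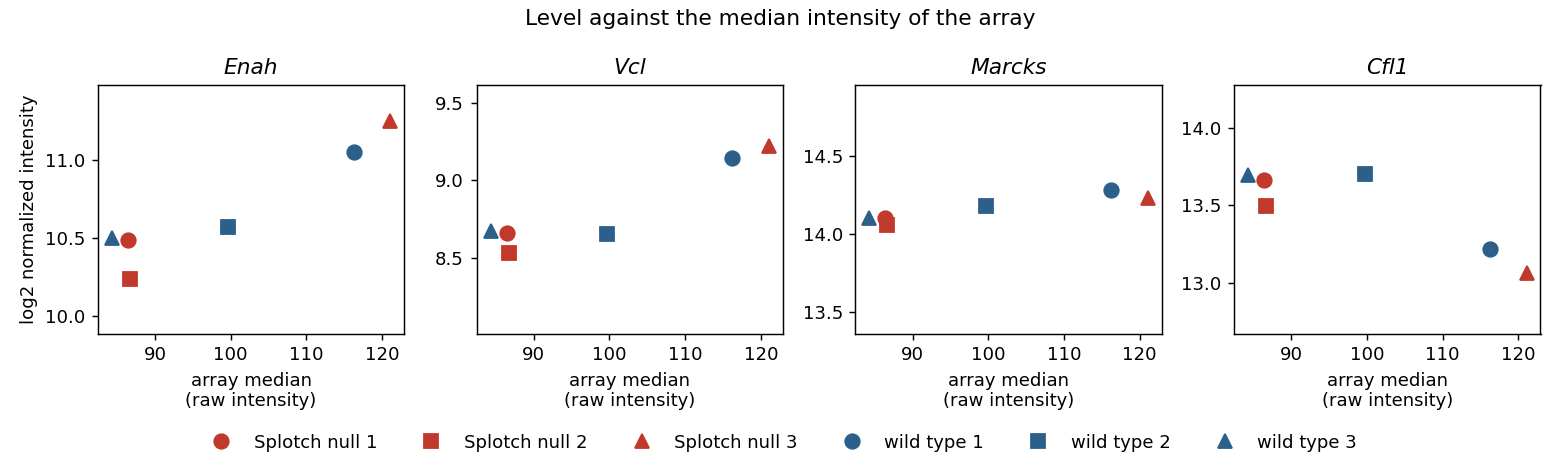
Level of Enah, Vcl, Marcks and Cfl1, as log2 normalized intensity, against the median raw intensity of each array. The 2 arrays with medians above 116 are Splotch null 3 and wild type 1, and they are highest for the first 3 genes and lowest for Cfl1.

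Splotch null 2, the array rich in yolk sac markers, held the lowest normalized value of the 6 at the probes standing for Enah, Vcl, Marcks, Abl2 and Arhgap35. At the dimmer tested probes of Enah (6.78) and Arhgap35 (8.11) it was second highest. Relative to the array median, Splotch null 2 was not lowest for Marcks (209.4, against 152.8 in Splotch null 3). Nor was it for Arhgap35 (8.04, against 7.93 in wild type 1). Without Splotch null 2, 7 of the 10 genes had a higher mean in Splotch null, and the median difference was 0.11. Over all genes 51.2% then had a higher mean and the median was 0.0044, and leaving out the lowest value raises the Splotch null mean of those 5 genes by construction. Enah then differed by 0.16, Vcl by 0.11, Abl2 by 0.12 and Arhgap35 by 0.11, and Vasp, Marcks and Cfl1 remained lower. None passed the test (limma adjusted p of 0.99998 for each). In tissue RNA, fewer cells of a type and less RNA per cell cannot be told apart, and the part of the yolk sac or neural share in these levels was not tested.

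The likeness of other genes was measured as the Pearson correlation of log2 intensity over the 6 arrays, among 13765 other genes. The nearest to Shroom3 were St3gal2 (r = 0.998), Odf3l1 (0.995) and Cenpp (0.994), and 64 genes exceeded 0.9. Nearest to Enah were Ccnyl1, Cemip2 and Atad2b, with r between 0.998 and 0.999, and 1154 genes exceeded 0.9. Arhgap35 was nearest to Sox13 (0.998), Hes5 (0.991) and Nkx6-1 (0.985), with 71 above 0.9. These values belong to the brightest probe of each gene. The dimmer tested Arhgap35 probe had an r of -0.035 with the brightest, and the Enah probes had 0.32 between them. With the log2 array median Enah had an r of 0.94, Shroom3 of -0.37 and Arhgap35 of -0.15. Over only 6 arrays, high correlations arise for many genes and are given as a description.

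The wider actin machinery gave no call either. Of 169 listed genes 150 were tested, and 0 passed in either direction (0 of 150 also at an unadjusted p under 0.05). Their median difference was 0.011 with 54.7% higher in Splotch null, against 0.017 and 55% over all genes. The genotypes did not overlap for 3 of the 147 measured on every array, or 2.04%, against 5.11% of all genes, and the 3 were Wdr1, Palld and Arhgef12, all higher in Splotch null. Palladin, encoded by Palld, is an actin-bundling protein of stress fibres, and it differed by 0.33 (SE 0.16).

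By role, genes for the Arp2/3 complex and its WAVE and WASP activators, which build branched networks, had 13 of 21 lower and a median of -0.072. Arpc2 and Arpc3, which encode subunits of the complex, differed by -0.21 (SE 0.13) and -0.39 (SE 0.36), and the WAVE complex gene Brk1 by -0.25 (SE 0.24). Formins and other nucleators split 5 to 5, with the Dishevelled partner Daam1 at 0.18 (SE 0.14), its relative Daam2 at -0.12 (SE 0.17) and the nucleator Spire1 at -0.057 (SE 0.14). Partners of Ena/VASP had 5 of 9 higher, with Apbb1ip, the RIAM protein, at 0.26 (SE 0.13), the zyxin relative Lpp at -0.19 (SE 0.17) and zyxin, Zyx, at 0.13 (SE 0.13).

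Cadherin junction genes had 8 of 15 higher in Splotch null, with p120-catenin, Ctnnd1, at -0.19 (SE 0.14) and the alpha-catenin gene Ctnna2 at 0.20 (SE 0.15). Cdh1, the epithelial cadherin, was the 1 listed gene beyond 1.5-fold, with log2 intensities of 7.94, 9.51 and 9.24 in Splotch null and 9.83 and 9.24 in wild type, where the third spot was unusable. Splotch null 1 was the lowest sample, the other 2 Splotch null values lay within the wild-type range, and the difference of -0.63 (SE 0.48) did not pass. Over all genes 0.594% were beyond 1.5-fold. Focal adhesion genes had 8 of 12 higher, with the talin gene Tln2 at 0.24 (SE 0.18) and integrin-linked kinase, Ilk, at 0.16 (SE 0.12). Actins, capping and bundling proteins had 8 of 17 higher, with ezrin, Ezr, at 0.24 (SE 0.14), capping protein Capzb at -0.24 (SE 0.16) and spectrin Sptbn1 at -0.24 (SE 0.15). Adjusted p was 0.9998 for every gene named from these lists (limma, Benjamini-Hochberg).

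**Figure D4:**
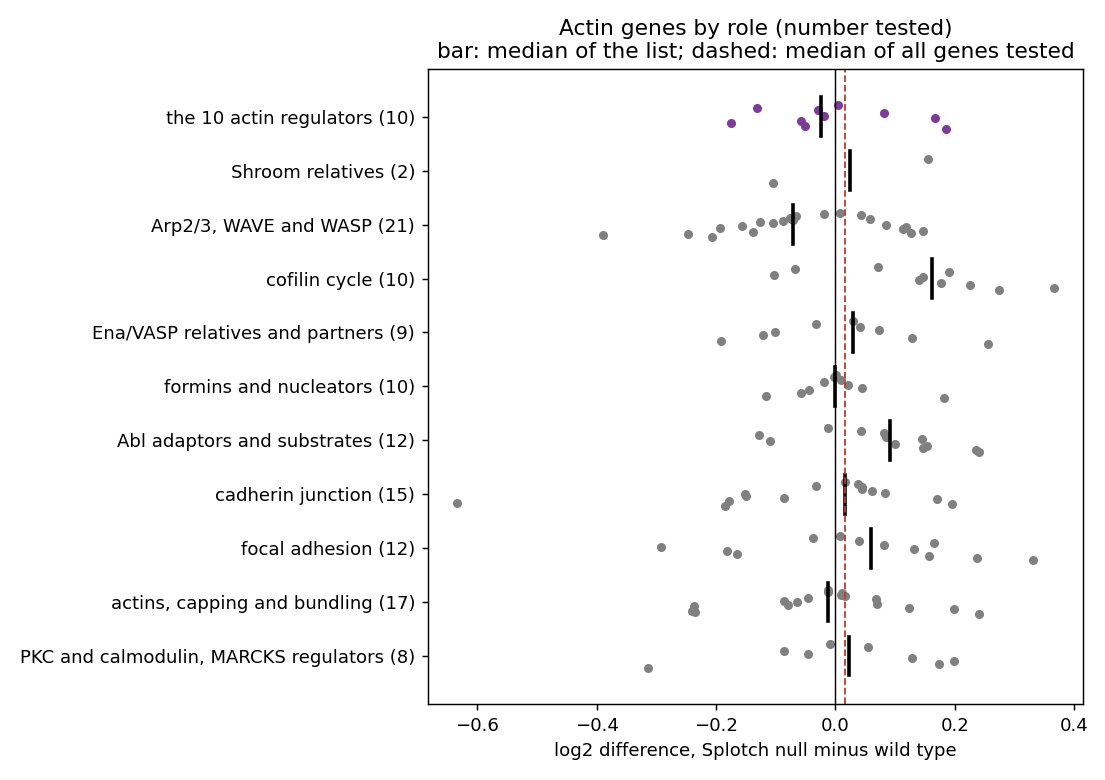
Difference in log2 intensity, Splotch null minus wild type, for the 10 actin regulators and for the tested genes of 10 further lists of the actin machinery. Each point is a gene, the black bar is the median of its list and the dashed line the median of all genes tested (0.017). List medians lie between -0.072 for the Arp2/3 list and 0.16 for the cofilin cycle.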

How the data were processed

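Per the labels' protocols, amplified RNA carried a biotin label. Arrays were read with CodeLink Expression Analysis 5.0.0.31312, per the file headers, and the deposited reports give a raw intensity and an intensity divided by the array median. Raw intensity fell below 0, so a background had been subtracted, by a method not given in the sources used here. The authors' value table holds the same intensity times 1 constant per array. Spots with the quality flag G (good), S (saturated) or L (near background) were used, and 277 to 422 others per array were left out.

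Raw intensity was floored at 0.0119, its smallest positive value. After adding 50, log2 values were quantile-normalized over transcript probes. Probes with flag G or S on at least 3 arrays and at least 2 usable spots per genotype, 24434 in all, entered limma 3.58.1 (R 4.3.3), with adjustment over these probes. A gene was represented by its probe with the highest mean. Names came from GEO's platform annotation, updated to GRCm38.p6 symbols, and promoters from RefSeq. The array files name no genome build.

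The genes, gene lists and tests were chosen with earlier results of these data known. Named genes are the 10 members, the listed Shroom, cofilin and Ena/VASP relatives and up to 3 list genes by smallest p, while Palld, Wdr1 and Arhgef12 are named as a count of 3. Promoter motifs and the genes described by likeness were chosen after the values were seen. Alternatives covered scaling, the value table, offset, filters, probe choice, moderation, array brightness and left-out arrays. The headers gave no batch that separates arrays by slide. The number of arrays limits the precision. Some listed genes and lists are not reported here.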

Additional observations from a re-analysis of the deposited data

How the results depend on the processing

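Under the 17 alternatives, 0 of 14314 genes, 0 of the 10 actin regulators and 0 of the listed actin genes were called by limma, with 12620 to 18504 genes tested where the filter differed. At an unadjusted p under 0.05 the alternatives gave 116 to 676 genes and 0 of the 10. Abl2 has no value with flag G or S on all 6 arrays, so it has 16 alternatives. Shroom3, Marcksl1 and Abl1 kept a positive and Vasp a negative difference in all of them, and Shroom3 lay between 0.085 and 0.28. Many of the alternatives could not have turned a sign. Filters and moderation left the differences of these genes unchanged. For Shroom3 the lack of overlap fixed the sign with any array left out, without the brightest pair and with either offset. The number of the 10 with a higher mean in Splotch null was 3 to 6 over the settings that keep both genotypes whole or drop the brightest pair, and 3 to 7 with each array left out. Their median difference was -0.057 to 0.11 with each array left out, and 7 and 0.11 came without Splotch null 2.

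The sign turned for 6 genes under at least 1 alternative, and the cause was not tested. With array median as covariate Enah was 0.0043 and Vcl 0.022. With median scaling Marcks was 0.027 and Vcl 0.00044, and with the authors' values Marcks was 0.029 and Vcl 0.0021. Arhgap35 was -0.0079 with cyclic loess, -0.012 as the mean of its probes and -0.081 without the brightest array of each genotype, where Abl2 was 0.037. With each array left out, Enah ranged over -0.35 to 0.16, Vcl over -0.23 to 0.14, Abl2 over -0.24 to 0.12, Cfl1 over -0.29 to 0.040 and Arhgap35 over -0.067 to 0.11. No paired analysis was possible because the replicates carry no shared number, and no slide or scan block was available. Shroom3 and Abl2 lie near background, where the offset and noise limit what can be seen.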
